A study of Homo sapiens with 15 samples.

Results

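The short arm of human chromosome 3 carries 4 genes that are recurrently mutated in clear cell renal carcinoma: SETD2, VHL, PBRM1 and BAP1. These 4 of 20007 annotated protein-coding genes were chosen by name. Chromatin accessibility at each gene was described from ATAC-seq, an assay in which the Tn5 transposase inserts adapters into open DNA. Each locus was the gene body of GENCODE release 44 with 10 kb added on each side, in hg38 coordinates. The measure was the number of bases of the locus that lay under called peaks in each library.

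RPTEC, a human renal proximal tubule epithelial line immortalised with hTERT and kept in G418, was the parent of every group. WT cells carried intact SETD2 and gave 3 libraries. KO1 and KO2 were each 1 clone with frameshifts made by CRISPR/Cas9 in exon 3 of SETD2, and each gave 3 libraries. Rescue1 and Rescue2 were each 1 clone of KO cells with lentiviral full-length SETD2 carrying a 3×FLAG tag, selected with blasticidin, and each gave 3 libraries. The paper's text does not say whether the rescue clones were made from KO1 or from KO2. In what follows KO stands for the 6 libraries of KO1 and KO2, and rescue for the 6 libraries of Rescue1 and Rescue2. Libraries of 1 clone are not separate clones, and the sources do not say whether they came from separate cultures. The p-values below therefore measure the spread between these libraries, which may be technical.

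SETD2 is the methyltransferase that places H3K36me3 on the bodies of transcribed genes. VHL is the substrate receptor of the ubiquitin ligase that marks hypoxia-inducible factors for degradation, and its loss is the founding event of most clear cell renal carcinomas. PBRM1 is a bromodomain subunit of PBAF, a SWI/SNF complex that moves nucleosomes. BAP1 is a nuclear deubiquitinase that removes ubiquitin from histone H2A. A single loss of the short arm takes 1 copy of all of them, which is why they are read together in this tumour.

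The peak lists held 197527 to 266011 peaks, with more peaks in KO than in WT (221764 ± 17209 against 202669 ± 8446, SD, exact permutation p = 0.0476). The lists give no read counts, so the depth is unknown and a site without a peak is one below the calling threshold, not one shown to be closed. Of 10 renal epithelial markers, 6 had a peak on their start site in all 15 libraries, among them PAX8, PAX2, CDH16, KRT8 and KRT18, whereas the proximal tubule genes LRP2 and CUBN had it in 0 of 15 libraries and CDH1 in 1. EPCAM had it in 3 of 3 WT, 3 of 6 KO and 6 of 6 rescue libraries. Of 5 immune, 5 endothelial and 5 podocyte markers, 4, 3 and 3 had it in none, and 0, 0 and 2 in all 15. The endothelial gene KDR had it in 0 of 3 WT, 6 of 6 KO and 5 of 6 rescue libraries and CDH5 in 0 of 3, 0 of 6 and 5 of 6, and the immune gene CD14 in 2 of 3, 1 of 6 and 3 of 6, while the endothelial genes PECAM1 and VWF and the immune gene PTPRC had it in 0 of 15. The part of these markers in the results was not tested.

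The guide used to disrupt SETD2 is shown with its surroundings, because it fixes which part of the gene was altered. It matched the genome once, on the plus strand at chr3:47122997-47123019 together with its PAM, and capitals mark the guide. SETD2 is read from the minus strand.

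SETD2 guide site: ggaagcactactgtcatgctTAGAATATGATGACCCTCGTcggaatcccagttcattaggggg

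The expected cleavage point lay in exon 3 at coding position 1622 of 7692, or 21.1% of the coding length, within codon 541. No library had a peak on it. The nearest region with peaks was 1308 bases away, at chr3:47121513-47121706 in the same exon. That exonic region had a peak in 1 of 3 WT, 4 of 6 KO and 5 of 6 rescue libraries. With a peak in only 1 WT library, the region cannot show whether peaks near the guide site were lost.

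All 4 promoters had a peak in all 15 libraries. In its own library the highest SETD2 promoter peak stood between percentiles 63.9 and 85.7 of fold enrichment over local background. The VHL promoter peak stood between percentiles 73.1 and 88.4, the PBRM1 peak between 66.8 and 82.7, and the BAP1 peak between 46.0 and 69.7. The SETD2 promoter is printed because its peak stayed with the knockout of its own gene. The 250 bases before the start site (RefSeq, GRCh38.p14, chr3:47164114-47164363, minus strand) were 69.6% G and C with 21 CpG dinucleotides. Capitals mark the only match found.

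SETD2 promoter: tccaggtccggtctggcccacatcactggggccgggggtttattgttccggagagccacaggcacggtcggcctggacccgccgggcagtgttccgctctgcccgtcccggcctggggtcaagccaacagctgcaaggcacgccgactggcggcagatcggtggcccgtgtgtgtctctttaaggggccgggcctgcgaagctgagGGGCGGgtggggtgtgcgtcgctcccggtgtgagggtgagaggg

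The match is to GGGCGG, letters bound by SP and KLF factors, which 42.6% of 35116 promoter windows of this length hold on either strand. Letters for ETS (CCGGAAG, 8.52% of windows), NF-Y (CCAAT, 32%), NRF1 (GCATGCG, 3.39%), CREB (TGACG, 21.2%) and YY1 (AAGATGG, 3.70%) were searched on both strands and had no match in this window. RefSeq gives 2 PBRM1 windows of the same length. In one CCAAT matched 1 time and TGACG 3 times with no GGGCGG, and in the other GGGCGG matched 6 times with neither of these. The SETD2 start site lies 73 bases from that of KIF9-AS1, a noncoding RNA on the other strand. The BAP1 start site lies 652 bases from that of PHF7, a plant homeodomain finger gene read in the other direction. The PBRM1 promoter region overlaps the annotated body of GNL3, a protein-coding gene on the other strand. Peaks at the starts of SETD2, BAP1 and PBRM1 therefore cannot be given to 1 gene of a pair.

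SETD2, ENSG00000181555.22, spans 147686 bases at chr3:47016428-47164113 on the minus strand. Its locus had 4480, 3896 and 3880 bases under peaks in WT. KO1 had 5040, 4272 and 4486 bases, and KO2 had 4801, 4213 and 5375. Rescue1 had 4597, 4875 and 4840 bases, and Rescue2 had 5875, 6146 and 4593. Every rescue library was above every WT library, whereas the KO libraries overlapped both. The mean was 4085 ± 342 in WT, 4698 ± 458 in KO and 5154 ± 679 in rescue (SD). KO exceeded WT by 612.5 bases, which was within the spread (exact permutation p = 0.0714, adjusted over all genes 0.195). Rescue exceeded WT by 1069 bases (exact permutation p = 0.0238, adjusted 0.122), and 16.3% of all genes tested were likewise higher in every rescue library than in every WT library. Rescue and KO differed by 456.5 bases (exact permutation p = 0.214).

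**Figure D1:**
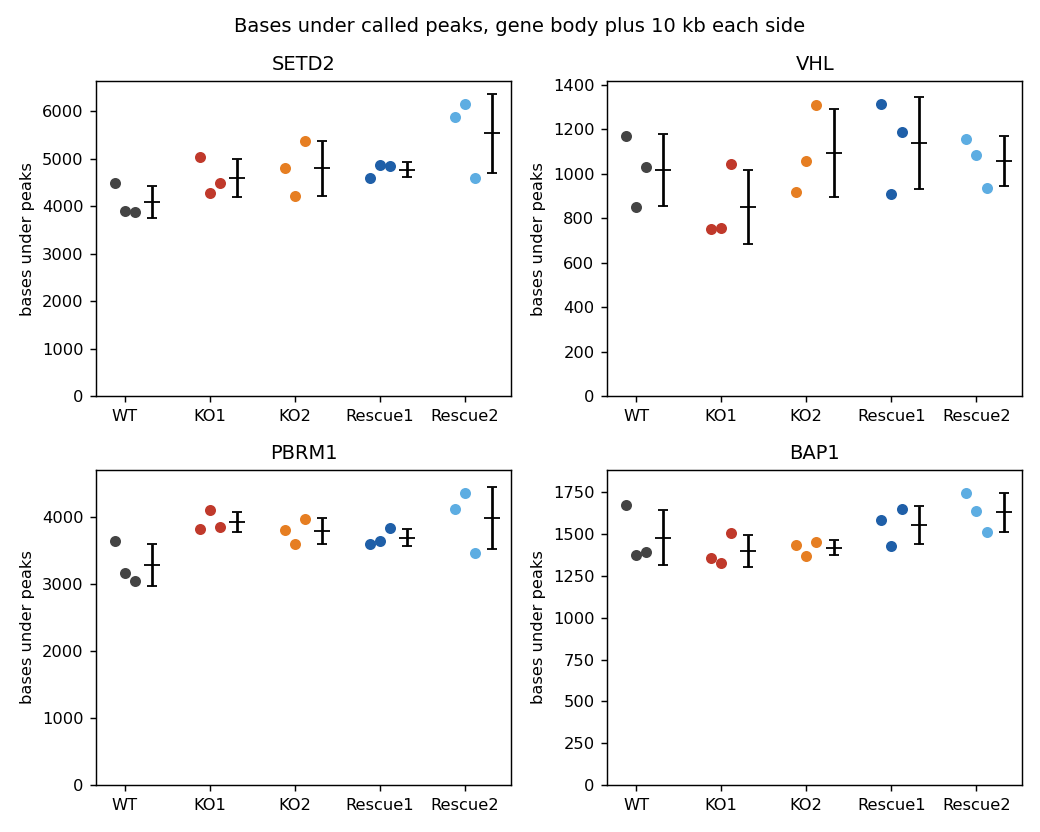
Bases under called peaks (vertical axis, linear from 0) at the 4 loci, gene body plus 10 kb each side, with 1 point per library and the mean ± SD of the 3 libraries of each group beside them. At SETD2 the 3 WT libraries lie between 3880 and 4480 and the 6 rescue libraries between 4593 and 6146, while at VHL all groups overlap.

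The SETD2 locus held 24 regions with a peak of at least 2 libraries and another 5 with a peak of 1 library only. The 24 comprised 1 promoter region, 6 that touched an exon, 15 in introns alone, 1 upstream and 1 downstream. Of the 24 regions, 7 had a peak in all 15 libraries: the promoter, the last exon, exon 18 and 4 intronic sites. Over all 4 loci 16 of 50 regions did so, against 35.6% of the 295008 regions of the series.

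Between KO and WT, 4 of the 50 regions were gained, meaning a peak in all 6 KO and in no WT library, and 0 were lost, meaning the opposite. With lists of 150000 peaks, 2 were gained and 1 lost. The same counts came from counting a library only where its peaks covered at least 50% of a region. Over all regions of the series 4.79% were gained and 2.48% lost. The 4 regions were 2 introns of SETD2 and 2 introns of PBRM1. By Fisher's exact test 5 of the 50 were occupied more often and 1 less often at an unadjusted p under 0.05 (6.96% and 3.85% of all regions). After adjustment over all regions the count was 0 of 295008. The smallest Fisher's exact p for these group sizes, 0.0119, came to 0.164 after adjustment, so no region could pass. Between rescue and KO, 0 of the 50 regions were gained and 1 was lost (0.91% and 1.24% of all regions).

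The first SETD2 region gained in KO, chr3:47038418-47038571 in intron 17, had a peak in 0 of 3 WT, 6 of 6 KO and 5 of 6 rescue libraries (Fisher's exact p = 0.0119 for KO against WT, before adjustment). Its peaks covered 119 to 138 bases in KO. They were of low to middling height for their library in KO, between percentiles 6.50 and 49.5 of fold enrichment. The second, chr3:47082587-47082895 in intron 12, had a peak in 0 of 3 WT, 6 of 6 KO and 6 of 6 rescue libraries, with 115 to 309 bases in KO and 169 to 253 bases in rescue. Both sites had a peak in at least 5 of 6 rescue libraries. The 2 sites differ in sequence repetition: of the 6 pieces of 50 bases around the intron 17 site, 3 occurred once on the main chromosomes and the most frequent 110 times, whereas all 6 pieces at the intron 12 site occurred once. The part of repetition in the calls was not tested.

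The sequence at the intron 12 site is shown because the site separated every KO and every rescue library from every WT library. It is the 300 bases centred on the region, plus strand, with matches to any of 5 motifs in capitals. The motifs were chosen with the regions known and searched on both strands. They were AP-1 (TGANTCA, in 31.7% of such windows at all 295008 regions), RUNX (TGTGGT, 26.5%), TEAD (GGAATG, 20.9%), the POU octamer (ATGCAAA, 6.16%) and C/EBP (TTGCNNAA, 15%).

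SETD2 intron 12, chr3:47082591-47082890: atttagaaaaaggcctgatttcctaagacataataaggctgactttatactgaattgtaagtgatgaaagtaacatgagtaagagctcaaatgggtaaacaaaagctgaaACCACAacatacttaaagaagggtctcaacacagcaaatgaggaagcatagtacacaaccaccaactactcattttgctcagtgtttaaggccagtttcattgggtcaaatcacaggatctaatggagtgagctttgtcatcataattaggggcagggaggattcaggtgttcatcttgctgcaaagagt

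The window held 1 RUNX match.

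**Figure D2:**
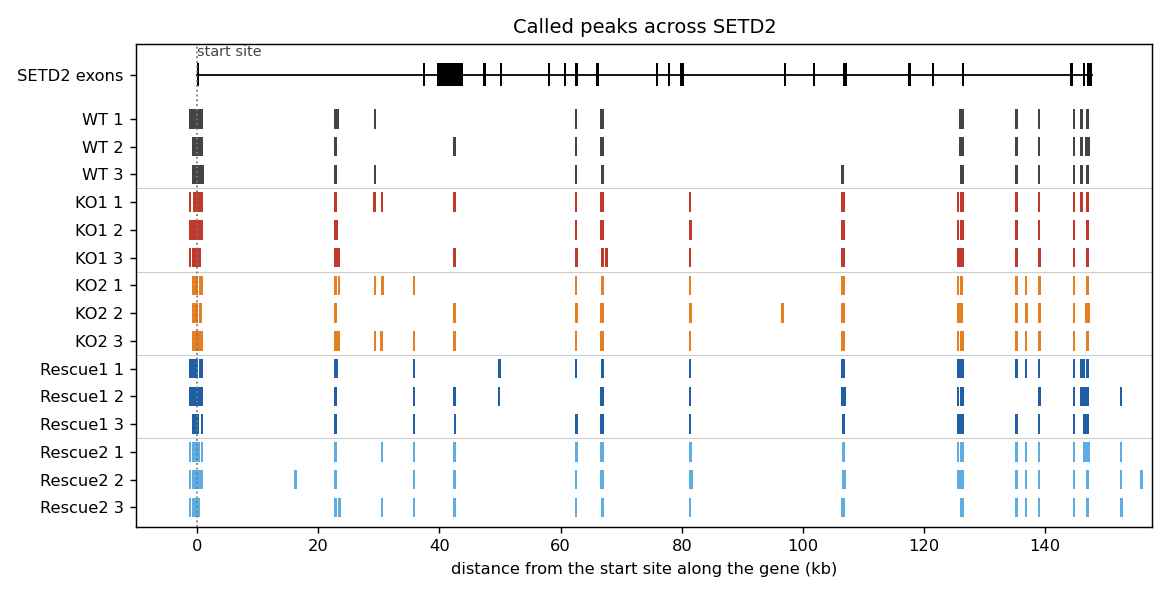
Called peaks (coloured blocks, 1 row per library) across SETD2 against the distance from its start site in kb along the gene, with the exons in black above (narrow blocks are widened to be visible). The block 81372 bases from the start site, in intron 12, is present in all 6 KO and all 6 rescue rows and in no WT row.

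Other SETD2 regions are given for their differences in occupancy, chosen after the values were seen. The region at chr3:47128203-47128416 in intron 1 had a peak in 0 of 3 WT, 0 of 3 KO1, 2 of 3 KO2 and 6 of 6 rescue libraries, and with the intron 12 site and a PBRM1 site it was 1 of 3 regions held by every rescue and no WT library (4.48% of all regions were so gained, and 0 of the 50 were lost against 2.09%). At chr3:47017994-47018223 in intron 19 a peak was present in 3 of 3 WT, 1 of 6 KO and 2 of 6 rescue libraries. At chr3:47027198-47027385 in intron 18 it was present in 0 of 3 WT, 0 of 3 KO1 and 3 of 3 KO2 libraries, so the KO clones differed from each other there.

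The coding sequence of SETD2 itself was under peaks to a different extent in the groups. Coding bases under peaks numbered 440, 413 and 412 in WT. They numbered 693, 545 and 631 in KO1 and 475, 499 and 668 in KO2. They numbered 606, 817 and 907 in Rescue1 and 1069, 1007 and 749 in Rescue2. Every KO library was above every WT library, and 5 of 6 rescue libraries were above every KO library. The means were 422 ± 15.9 in WT, 585 ± 91.4 in KO and 859 ± 171 in rescue (SD). The difference of KO from WT was 163.5 bases (exact permutation p = 0.0238, the smallest this design allows, adjusted 0.235), and 5.53% of all genes tested had every KO library above every WT library. Rescue exceeded KO by 274 bases (exact permutation p = 0.0108, adjusted 0.162), a direction that 9.2% of all genes showed at an unadjusted p under 0.05. Rescue exceeded WT by 437.5 bases with no overlap (exact permutation p = 0.0238, adjusted 0.232), as did rescue in 7.12% of all genes. No gene passed the adjusted threshold for coding bases in any of the 3 comparisons, and in both comparisons with WT the smallest possible p was too large after adjustment for any gene to pass. The mean order of WT below KO below rescue was shared by 15.6% of 12573 genes with coding bases under a peak. Totals under peaks per library had that order too, at 51.7 ± 3.91 megabases in WT, 55.9 ± 3.13 in KO and 58.3 ± 5.36 in rescue (SD). Rescue2 replicates 1 and 2, highest at the SETD2 locus and in its coding sequence, also had the largest totals (65.2 and 64.5 megabases). Coding bases were not scaled to these totals, and the part of the totals in the differences was not tested.

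Peaks touched 7 of the 21 coding exons of SETD2, namely exons 1, 3, 8, 15, 18, 20 and 21. Exons 15 and 20 had no exonic bases under peaks in WT, and since they were chosen after their values were seen no test is given. Exon 15 (chr3:47056821-47057490, 670 bases) had 0 bases under peaks in each of the 3 WT libraries. It had 129, 108 and 101 bases in KO1 and 126, 102 and 134 in KO2. It had 157, 340 and 279 bases in Rescue1 and 401, 503 and 235 in Rescue2. The 3 sets of libraries did not overlap, from WT through KO to rescue. The share of all exons that separate in this way was not computed, so how unusual this is remains unknown.

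The adjoining end of intron 14 carried a separate peak in all 6 KO libraries, of 82 to 177 bases, and in 1 WT library, of 94 bases. In 3 rescue libraries, namely Rescue1 replicate 3 and Rescue2 replicates 1 and 2, a single peak ran across the splice site and covered 174 to 188 intronic bases. In the other 3 rescue libraries the intron and exon peaks were apart, as in KO. The boundary is printed to show the junction that the wider peaks crossed, on the minus strand at chr3:47057461-47057640, with the first 30 bases of exon 15 in capitals.

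SETD2 intron 14 and exon 15: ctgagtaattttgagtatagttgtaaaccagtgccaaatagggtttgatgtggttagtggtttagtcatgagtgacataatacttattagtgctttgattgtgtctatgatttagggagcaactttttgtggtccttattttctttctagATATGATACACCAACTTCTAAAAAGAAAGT

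**Figure D3:**
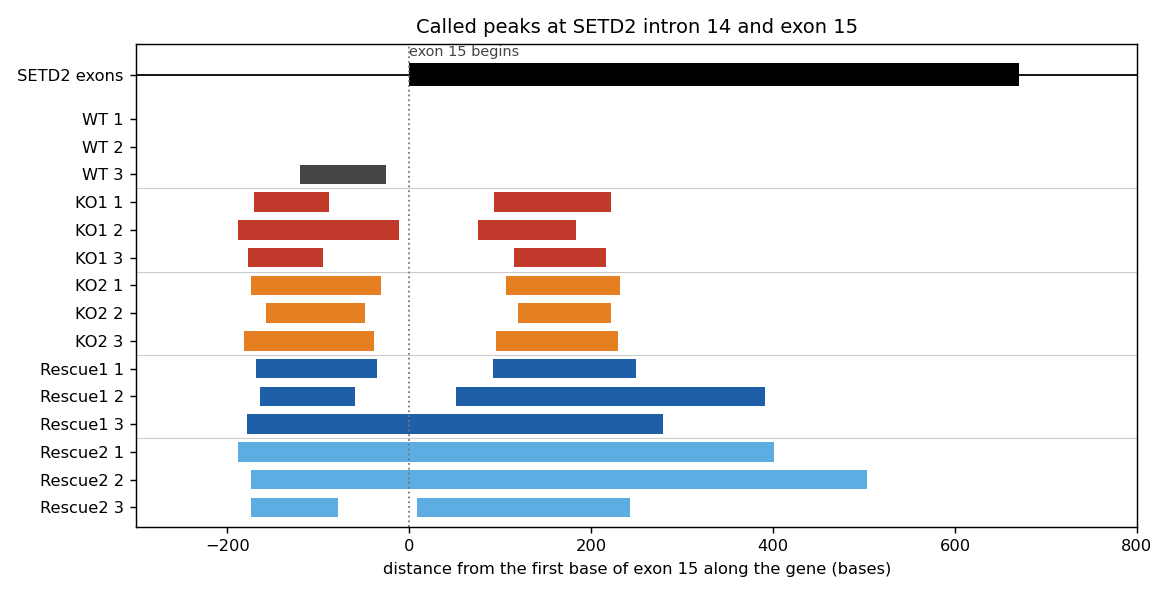
Called peaks (blocks, 1 row per library) around the start of SETD2 exon 15, with the distance in bases from the first base of the exon along the gene and the exon in black. WT rows have no block on the exon, the 6 KO rows have a block of 101 to 134 bases on it, and the 6 rescue rows have 157 to 503 bases on it, joined to the intronic block in 3 of them.

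Exon 20 (chr3:47017638-47017739, 102 bases) had a peak in 0 of 3 WT and 0 of 6 KO libraries, in 3 of 3 Rescue1 libraries and in 1 of 3 Rescue2 libraries. These peaks were weak, at percentiles 2.05 to 10.6 of fold enrichment in their library, and 84.3% to 100% of their bases lay in the exon. The transgene of the rescue clones carries SETD2 coding sequence, and peaks on an exon of the endogenous gene and on the same exon of a transgene cannot be told apart in these lists. On exon 15, peaks covered 101 to 134 bases in the KO clones, for which no SETD2 vector is described, and 157 to 503 in rescue. The part of the transgene in the peaks on exons 15 and 20 was not tested. Outside exons, the introns and flanks of SETD2 had 3280 ± 295 bases under peaks in WT, 3731 ± 390 in KO and 3901 ± 512 in rescue (SD), and neither KO against WT (exact permutation p = 0.119) nor rescue against KO (exact permutation p = 0.532) passed the test.

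PBRM1, ENSG00000163939.19, spans 140566 bases at chr3:52545352-52685917 on the minus strand. Its locus had 3636, 3168 and 3043 bases under peaks in WT. KO1 had 3826, 4106 and 3850 bases, and KO2 had 3803, 3595 and 3977. Rescue1 had 3598, 3648 and 3836 bases, and Rescue2 had 4122, 4359 and 3465. All KO libraries but 1 lay above every WT library, and KO and rescue overlapped widely. KO exceeded WT by 577 bases (3860 ± 173 against 3282 ± 313, SD, exact permutation p = 0.0476, adjusted 0.152), and 16.0% of all genes were higher at an unadjusted p under 0.05. Rescue and KO differed by -21.5 bases (exact permutation p = 0.911).

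Within the gene body alone KO exceeded WT by 706 bases, with 6 of 6 KO libraries above every WT library (exact permutation p = 0.0238, adjusted 0.102, and 16.3% of all genes were higher at an unadjusted p under 0.05). The share of all genes without overlap was not computed for gene bodies. Both PBRM1 regions gained in KO lay in introns of the PBRM1 body. The region at chr3:52573820-52574313 in intron 24 had 0 bases under peaks in all WT libraries, 415 to 492 bases in KO and 235 to 405 bases in rescue. It was among the higher peaks of the KO libraries, at percentiles 83.2 to 92.2 of fold enrichment, and stood at percentiles 54.8 to 81.6 in rescue. This site also lies inside the annotated body of UQCC5, a mitochondrial complex assembly gene on the other strand. The region at chr3:52636546-52637089 in intron 11 had 307, 430 and 258 bases under peaks in KO1, 192, 233 and 287 in KO2, and 0 in every WT and every rescue library. It was the only region of the 50 that was gained in KO and lost in rescue (Fisher's exact p, before adjustment, was 0.0119 between KO and WT and 0.00216 between rescue and KO). With lists of 150000 peaks, 0 regions were lost in rescue against KO. The count was also 0 when a library counted only where its peaks covered at least 50% of a region. This reversal therefore rests on the lists and the occupancy rule used. The KO peaks of the intron 11 region stood at percentiles 41.1 to 53.8.

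**Figure D4:**
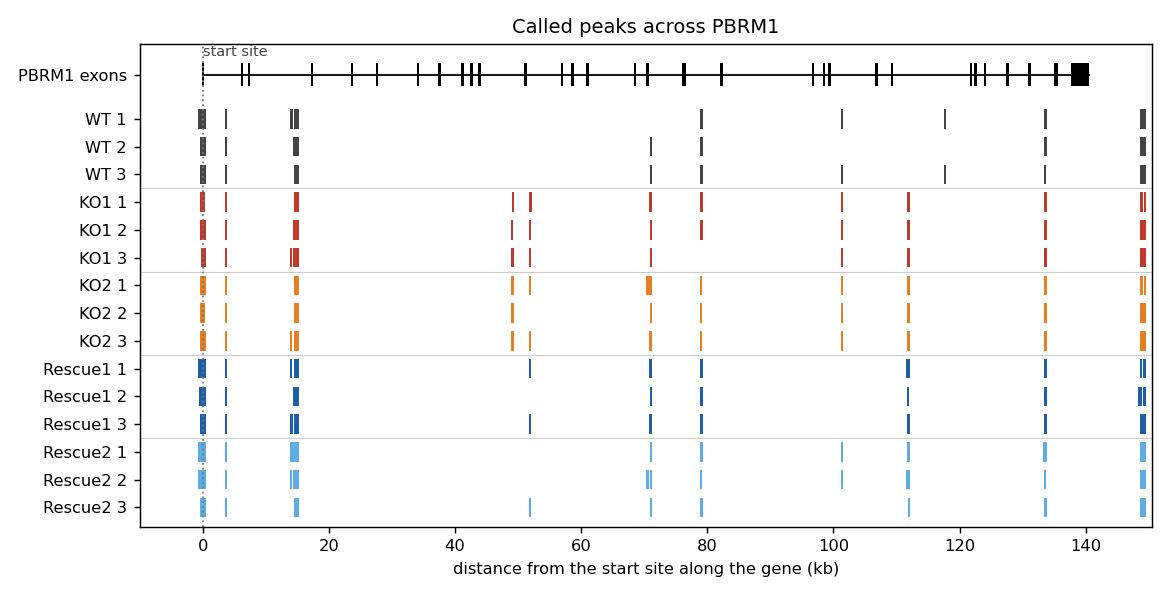
Called peaks (blocks, 1 row per library) across PBRM1 against the distance from its start site in kb along the gene, with exons in black (narrow blocks are widened to be visible). The block 49095 bases from the start site is present in the 6 KO rows only, and the block at 111846 bases in the KO and rescue rows but in no WT row.

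Other PBRM1 regions were steadier. Of 15 regions with a peak of at least 2 libraries, 6 had a peak in all 15 libraries, including the promoter and a site of 720 to 951 bases in intron 3 at chr3:52670590-52671545. The site at chr3:52568164-52568311 in intron 24 had a peak in 2 of 3 WT libraries and in no other library. Coding bases under peaks were 0 in 13 libraries, 82 in KO2 replicate 1 and 74 in Rescue2 replicate 2, all in exon 17. The flanks of PBRM1 had more bases under peaks in every rescue library than in every KO library, at 1200 ± 83.1 against 1018 ± 44.5 (SD, exact permutation p = 0.00216, adjusted over all genes 0.0221), where 14.5% of all genes passed the adjusted threshold in that direction. Scaled to the bases under peaks of each library, that call was lost (adjusted p = 0.126, exact permutation test). The flank sites include 2 regions in UQCC5, present in all 15 libraries.

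VHL, ENSG00000134086.9, spans 11890 bases at chr3:10141778-10153667 on the plus strand. Its locus had 1170, 849 and 1031 bases under peaks in WT. KO1 had 752, 754 and 1042 bases, and KO2 had 918, 1056 and 1308. Rescue1 had 1312, 908 and 1190 bases, and Rescue2 had 1155, 1083 and 935. All groups overlapped. The differences were -45 bases for KO against WT (exact permutation p = 0.786), 125.5 for rescue against KO (exact permutation p = 0.249) and 80.5 for rescue against WT (exact permutation p = 0.5).

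Most of the open sequence at VHL was its promoter. The region at chr3:10141607-10142466 had 733 to 852 bases under peaks, covered exon 1 whole in every library, and so gave the same 340 coding bases in all 15. Exons 2 and 3 had no peak in any library. The peak over the start site was 748 ± 19.98 bases wide in WT, 762 ± 35.5 in KO and 804 ± 41.2 in rescue (SD), and rescue against KO did not pass the test (exact permutation p = 0.0693). The other 5 regions with a peak of at least 2 libraries lay outside exons. The largest of them, chr3:10154839-10155338 downstream of the gene, had a peak in 2 of 3 WT, 1 of 3 KO1, 3 of 3 KO2 and 6 of 6 rescue libraries. None of the 6 regions was gained or lost.

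BAP1, ENSG00000163930.10, spans 9001 bases at chr3:52401008-52410008 on the minus strand. Its locus had 1672, 1373 and 1395 bases under peaks in WT. KO1 had 1356, 1330 and 1510 bases, and KO2 had 1437, 1369 and 1454. Rescue1 had 1584, 1429 and 1650 bases, and Rescue2 had 1746, 1636 and 1511. WT and KO overlapped, and 5 of 6 rescue libraries lay above every KO library. Rescue exceeded KO by 183 bases (1593 ± 112 against 1409 ± 68.8, SD, exact permutation p = 0.013, adjusted 0.0512), not passing the adjusted threshold that 19.4% of all genes passed upward and 4.43% downward. Without Rescue1 replicate 2 it passed, with a difference of 216 bases (adjusted p = 0.0285, exact permutation test). Outside exons the difference was 202 bases (exact permutation p = 0.00649, adjusted 0.0328), where 19.5% of all genes rose. That adjusted call was lost on leaving out any 1 of Rescue1 replicates 1 and 3, Rescue2 replicates 1 and 2, KO1 replicates 1 and 2 or KO2 replicate 2 (adjusted p up to 0.0616, exact permutation test).

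The gene body and the flanks of BAP1 moved in opposite directions. Gene body bases under peaks numbered 220, 226 and 221 in WT. They numbered 364, 274 and 360 in KO1 and 250, 240 and 249 in KO2. They numbered 180, 226 and 211 in Rescue1 and 216, 231 and 220 in Rescue2. Every KO library was above every WT and every rescue library, whereas WT and rescue overlapped. KO exceeded WT by 67.2 bases (exact permutation p = 0.0238, adjusted 0.102, and 16.3% of all genes were higher at an unadjusted p under 0.05). The share of all genes without overlap was not computed for gene bodies. Rescue fell by 75.5 bases from KO (214 ± 18.1 against 290 ± 57.3, SD, exact permutation p = 0.00216, adjusted 0.0201), and 4.48% of all genes passed the adjusted threshold in that direction. With every list reduced to its 150000 strongest peaks the BAP1 call was lost (a difference of -63.2 bases, adjusted p = 0.335, exact permutation test).

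These gene body bases all lay in the promoter region. The whole region, chr3:52409645-52410949, is shared with the start of PHF7. Peaks in it reached exon 2 of BAP1 in 0 of 3 WT, 3 of 3 KO1, 1 of 3 KO2, 1 of 3 Rescue1 and 0 of 3 Rescue2 libraries. In Rescue1 replicate 2 and Rescue2 replicates 1 and 3 it was split, so that the peak covering the BAP1 start site itself was only 215, 351 and 355 bases wide, against 952 to 1275 bases in KO and 1115 to 1144 in WT. The width of this peak did not differ between rescue and KO beyond the spread (703 ± 439 against 1144 ± 120, SD, exact permutation p = 0.0541, adjusted 0.326). The flanks had 1258 ± 169 bases under peaks in WT, 1120 ± 81.5 in KO and 1379 ± 115 in rescue (SD), and rescue exceeded KO by 259 bases (exact permutation p = 0.00433, adjusted 0.0323, with 14.5% of all genes passing in that direction). That flank call held on leaving out Rescue1 replicate 2, Rescue2 replicate 3 or KO2 replicate 3 and was lost without any 1 of the other libraries (adjusted p up to 0.0591, exact permutation test). The flank region at chr3:52411052-52411470, inside PHF7, had 93 to 339 bases in WT, 81 to 235 in KO and 210 to 371 in rescue. On the other side, 2 regions inside DNAH1 had a peak in 0 of 6 KO libraries and in 3 of 6 and 2 of 6 rescue libraries.

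**Figure D5:**
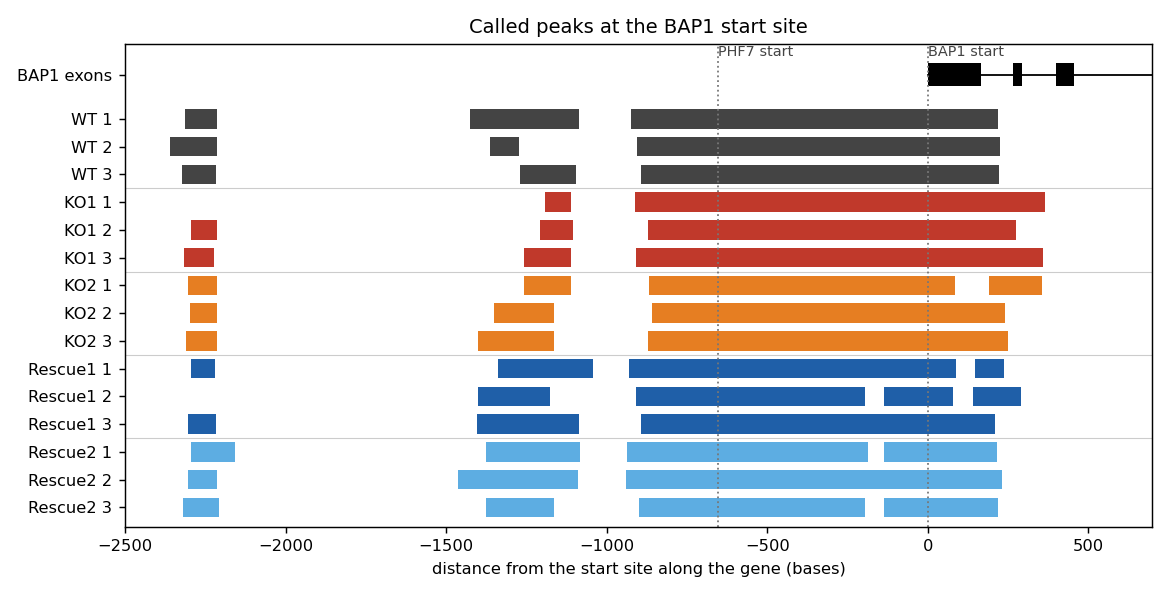
Called peaks (blocks, 1 row per library) around the BAP1 start site, with the distance from it in bases along the gene, its first exons in black and the PHF7 start marked 652 bases upstream. The blocks of the 6 KO rows cover 240 to 364 bases of the gene, those of the WT rows 220 to 226 and those of the rescue rows 180 to 231.

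Set side by side, the differences of KO from WT were 612.5 bases at SETD2, 577 at PBRM1, -45 at VHL and -70.7 at BAP1, beside a median of -12 over all genes tested, of which 48.1% had a difference above 0. The differences of rescue from KO were 456.5 bases at SETD2, -21.5 at PBRM1, 125.5 at VHL and 183 at BAP1, beside a median of 134 and 72.6% above 0. At an unadjusted p under 0.05, PBRM1 was the only one of the 4 that passed in the first comparison and BAP1 the only one in the second, where 31.5% of all genes were higher and 7.34% lower. These comparisons share the KO libraries. The split over all genes moved with the scaling: of the genes with an unadjusted p under 0.05 in KO against WT, 50.9% were higher in bases, 25.3% when scaled to the bases under peaks of each library and 37.6% with equal lists. Peaks covered 2.84% of the SETD2 locus, 3.23% of VHL, 2.33% of PBRM1 and 5.16% of BAP1 as a mean over 15 libraries, against a median of 3.40% over all genes. The share of all peaks that lay on the short arm was 2.93% ± 0.0237 in WT, 2.97% ± 0.0558 in KO and 2.90% ± 0.0175 in rescue (SD), lower in rescue than in KO (exact permutation p = 0.00433) and not different beyond the spread between KO and WT (exact permutation p = 0.405). KO1 had 3.02%, 3.01% and 3.04% and KO2 had 2.92%, 2.92% and 2.92%, beside 2.94%, 2.91% and 2.95% in WT. The KO clones thus differed from each other, and the KO2 shares lay within those of WT.

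Genes that work with the members were read from lists chosen with earlier results of these data known, and their locus bases are read beside all genes, of which 16.0% were higher and 15.4% lower in KO than in WT at an unadjusted p under 0.05, with 0 of 19329 passing after adjustment. The smallest exact permutation p possible in KO against WT, 0.0238, came to 0.0994 after adjustment, so no gene could pass there. In rescue against KO, where more libraries allow a smaller p, 19.4% were higher and 4.43% lower after adjustment. These adjusted counts therefore cannot rank the comparisons by strength. The VHL ligase is built with elongins B and C, a cullin and a RING protein, and of these 4 genes 0 were higher and 1 lower in KO than in WT. That gene was ELOB, encoding elongin B, with 1124 ± 137 bases in KO against 1408 ± 68.7 in WT (SD, exact permutation p = 0.0238, before adjustment), all 6 KO libraries below every WT library. Over all genes 11.3% had every KO library below every WT library and 12.6% above. In rescue ELOB had 1426 ± 187 bases, above KO (exact permutation p = 0.00866, adjusted 0.0394), and it was the 1 gene of the 4 to pass.

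Of 11 PBAF subunit genes, 2 were higher and 1 lower in KO than in WT, and 2 rose in rescue against KO after adjustment. SMARCC1, a core scaffold subunit that also lies on the short arm, had 6480 ± 578 bases in KO and 5002 ± 478 in WT (SD, exact permutation p = 0.0476, before adjustment). SMARCA4, the ATPase, had 5259 ± 493 bases in rescue and 4220 ± 440 in KO (SD, adjusted p = 0.0257, exact permutation test). In KO against WT and in rescue against KO the shares of PBAF genes that passed were thus near those of all genes. In rescue against WT 5 of 11 were higher and 1 lower at an unadjusted p under 0.05. Over all genes 22.2% were higher and 4.54% lower there.

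Of 10 genes of the BAP1 complex, 1 was higher and 0 lower in KO than in WT, and 1 rose and 1 fell in rescue against KO after adjustment. Before adjustment 6 rose and 1 fell in rescue against KO, where 31.5% of all genes rose and 7.34% fell. The median difference there was 540 bases, against 134 over all genes. The gene higher in KO and the gene that fell in rescue were both ASXL3, which encodes a cofactor of BAP1. Its locus had 491 ± 75.1 bases in WT, 2308 ± 468 in KO and 558 ± 139 in rescue (SD), with every KO library above every WT library (exact permutation p = 0.0238, before adjustment) and above every rescue library (exact permutation p = 0.00216, adjusted 0.0168). Over all genes 12.6% had every KO library above every WT library, and 2.76% had every rescue library below every KO library.

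Of 17 other candidate tumour suppressors of the short arm, 4 were higher and 3 lower in KO than in WT, and 1 rose and 1 fell in rescue against KO after adjustment. ROBO1, an axon guidance receptor, had 487 ± 206 bases in WT, 9430 ± 4838 in KO and 3392 ± 1152 in rescue (SD). All 6 rescue libraries stayed above every WT library (exact permutation p = 0.0238, before adjustment), as in 16.3% of all genes. Every KO library was above every WT library (exact permutation p = 0.0238, before adjustment), as in 12.6% of all genes, and 5 of 6 rescue libraries were below every KO library (adjusted p = 0.0257, exact permutation test). Of 15 other genes mutated in clear cell renal carcinoma, 2 were higher and 1 lower in KO, and 1 rose in rescue. ARID1A, a subunit of the related BAF complex, had 7571 ± 460 bases in KO and 6367 ± 794 in WT (SD, exact permutation p = 0.0476, before adjustment), and MTOR, the growth kinase, had 5026 ± 588 in rescue and 3389 ± 230 in KO (SD, adjusted p = 0.0168, exact permutation test).

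Of 12 tested genes that neighbour the members, 2 were higher and 0 lower in KO, and 3 rose in rescue. IRAK2, an interleukin receptor kinase near VHL, had 9052 ± 477 bases in KO and 8021 ± 528 in WT (SD, exact permutation p = 0.0476, before adjustment). FANCD2, a DNA crosslink repair gene near VHL, had 2307 ± 375 in rescue and 1573 ± 186 in KO (SD, adjusted p = 0.0168, exact permutation test).

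The genes on other chromosomes whose share of each library's bases under peaks varied most like a member's over the 15 libraries were picked from 14665 genes, and the correlations are descriptions over libraries that share clones and peak calling. For SETD2 they were MBOAT4 (Pearson r = 0.914), SMAD9 (0.818) and JAML (0.772). For PBRM1 they were HABP2 (r = 0.914), FADD (0.887) and SYCP3 (0.885), and for BAP1 TMEM219 (0.891), FBXO21 (0.887) and INTS15 (0.882). For VHL they were UHRF2 (r = 0.756), IGBP1C (0.748) and MYBPC3 (0.748). Among the members r was 0.536 for VHL and BAP1, -0.614 for VHL and PBRM1 and -0.574 for PBRM1 and BAP1, and for SETD2 it was -0.276 with VHL, 0.103 with PBRM1 and -0.330 with BAP1.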

How the data were processed

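ATAC-seq was measured in 15 libraries of RPTEC cells, 5 groups with 3 libraries each. The deposited files are peak lists in hg38. Per the submitters' processing notes BWA 0.7.17 aligned the reads and MACS2 2.2.7.1 called the peaks of each library by itself. Duplicate removal and blacklisting are not given in the sources used here. The authors deposited for each peak its interval, a MACS2 score, the fold enrichment at the summit (a ratio to local background) and its −log10 p and −log10 q values. No read counts were used, so depth is unknown and no counting interval can be given. All 99 contigs named in the lists are in the hg38 reference.

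Peaks were overlapped with GENCODE release 44 genes extended by 10 kb, with coding sequence taken from the canonical transcript. The bases under peaks were compared by an exact permutation test of library labels, two-sided by doubling the smaller tail, with Benjamini-Hochberg adjustment over all protein-coding genes tested. Regions were peaks merged on an overlap of at least 1 base and held by at least 2 libraries, compared by Fisher's exact test. The smallest p was 0.0238 for 6 libraries against 3 and 0.00216 for 6 against 6, both exact permutation values. In KO against WT the value of 0.0238 came to 0.0994 for locus bases and 0.102 for gene body bases after adjustment. In rescue against WT it came to 0.122 for locus bases, so no gene could pass in any of these tests. Python 3.11.15, numpy 2.4.6, pandas 2.3.3 and scipy 1.17.1 were used, and the tests were checked on simulated data. Members and lists were chosen with earlier results of these data known. The split into gene body and flanks, the region motifs and exons 15 and 20 were chosen after the values were seen. From each list the gene with the largest difference at an unadjusted p under 0.05 is named per comparison. UQCC5, PHF7, GNL3, KIF9-AS1 and DNAH1 are named as overlapping or adjoining genes. Alternatives were a stricter threshold, lists of 150000 peaks, scaling to the bases under peaks of each library, other flanks, other overlap rules, the replicate number as a block, single clones and leaving out each library. Some sequences and 1 marker gene are not reported here.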

Additional observations from a re-analysis of the deposited data

Results flagged for a closer look

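In 30 sets of 6 KO or rescue libraries, 4 had a library whose distance from the others passed Dixon's 95% critical value for groups of 6, and chance alone does so in about 1 set in 20. The peak on the VHL start site was 832 bases wide in KO2 replicate 3, where the next KO library had 759 and the lowest 733. The peak on the PBRM1 start site was 797 bases wide in KO1 replicate 3, where the nearest KO library had 860 and the highest 890. PBRM1 coding bases under peaks were 82 in KO2 replicate 1 and 0 in the other KO libraries. They were 74 in Rescue2 replicate 2 and 0 in the other rescue libraries.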

How the results depend on the processing

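A threshold of −log10 q of at least 2 removed few peaks (211820 of 212373 stayed in WT replicate 1) and so tested little. With equal lists the difference was 14 bases for VHL locus bases in KO against WT, 76.7 for PBRM1 locus bases in rescue against KO, 197 for BAP1 intron and flank bases, -63.2 for its gene body and 243 for its flanks. The 3 BAP1 calls, all for rescue against KO, were lost there. Equal lists gave 2 regions gained and 1 lost in KO against WT, 0 lost in rescue against KO and 2 lost in rescue against WT. As bases per megabase under peaks, PBRM1 flanks in rescue against KO gave 2.48, and rescue against WT gave -0.726 for VHL and -1.20 for BAP1. Without flanks the locus differences were 19 for VHL and 67.2 for BAP1 in KO against WT, -75.5 for BAP1 in rescue against KO and -8.33 in rescue against WT. With 50 kb flanks they were 452 for VHL in KO against WT, and 438 for PBRM1 and 521 for BAP1 in rescue against KO. Another rule counted a library only where its peaks covered at least 50% of a region. It gave 2 regions gained and 1 lost in KO against WT and 0 lost in rescue against KO. A majority rule gave 1 lost in KO against WT.

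Single clones gave these values. KO1 alone gave 12.3 for PBRM1 coding bases in rescue against KO, start-site widths of 23.3 for SETD2 and -1.67 for VHL against WT, 233 for BAP1 intron and flank bases, -119 for its body, 313 for its flanks, 183.5 for PBRM1 flanks and 1 region gained in rescue. KO2 alone gave 77.3 for VHL locus bases against WT, 46.3 for PBRM1 locus bases in rescue against KO, -2.33 and 1.5 for BAP1 coding bases, start-site widths of -73.0 for BAP1 against WT and 97.0 for SETD2 in rescue against KO, 171.5, -32.3 and 205 for the BAP1 parts, 180 for PBRM1 flanks and 1 region lost against WT. Rescue1 alone gave 180, -83.8 and 229 for the BAP1 parts, 201 for PBRM1 flanks, 1 region gained and 2 lost against KO and 5 gained against WT. Rescue2 alone gave 122.5 for PBRM1 locus bases, 11.0 for its coding bases, -21.0 for its start-site width against WT, 224.5, -67.2 and 289 for the BAP1 parts, 163 for PBRM1 flanks, and 1 region gained against KO, 5 gained and 1 lost against WT. Single clones against WT cannot reach a p under 0.05 by the exact permutation test, and the cause of the other changes was not tested.

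Replicate numbers did not pair the libraries (correlation of same-numbered libraries -0.250 to 0.0673, 0 of 30 over 0.1). The replicate block kept the differences of 202 for BAP1 intron and flank bases, -75.5 for its body, 259 for its flanks and 182 for PBRM1 flanks, none of which passed adjustment there, and it changed no other call. Leaving out each library in turn gave -129 to 31.7 for VHL and -124 to 25.3 for BAP1 locus bases in KO against WT, -126 to 53.1 for PBRM1 and 153 to 216 for BAP1 in rescue against KO, and -3.33 to 157 for VHL in rescue against WT. It gave -13.7 to 12.3 for PBRM1 coding bases in rescue against KO, -3.40 to 2.40 for BAP1 coding bases in rescue against WT, start-site widths of -12.5 to 52.1 for BAP1 in KO against WT and -4.47 to 38.9 for PBRM1 in rescue against WT, 175 to 230.5 for BAP1 intron and flank bases, 229 to 294 for its flanks, and 0 to 1 region lost in KO and 0 to 2 lost in rescue against WT.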
